A study of Homo sapiens with 32 samples.

Results

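Gamma-secretase subunits and membrane sheddases are 9 genes measured here on Affymetrix arrays: the complex genes PSEN2, NCSTN, APH1A, APH1B and PSENEN, and the sheddases ADAM10, ADAM17, BACE1 and BACE2. They were taken by exact gene symbol, which gave 24 probe sets of the 41091 that carry 1 symbol, and 9 genes of 19775. A549 is a line from a human lung adenocarcinoma and H460a one from a large cell carcinoma; the series text writes the second name as H460. Each line received vehicle or 2 µM RO4929097, a gamma-secretase inhibitor (GSI; the series text spells the compound RP4929097-001-003), for 6 or 24 h, with 4 arrays in each of 8 groups and 32 in all. All cells were plated at 35% confluency and rested overnight. Each model is a single established line, and nothing in the labels ties the 4 replicates of a group to different cultures. The p-values therefore reflect array-to-array spread, part of which may be technical.

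Many membrane proteins are cleaved in sequence. A sheddase first cuts the part outside the cell: ADAM10 and ADAM17 are zinc metalloproteases of the cell surface that release Notch ectodomains, growth factor precursors and cytokine receptors, while BACE1 and BACE2 are aspartyl proteases, the first of them known for starting the production of amyloid beta peptide. Gamma-secretase then cuts the remaining stub inside the membrane. The active site lies in a presenilin such as PSEN2, nicastrin (NCSTN) receives the stub, APH1A or APH1B holds the assembly together, and PSENEN (PEN-2) completes the complex and lets the presenilin mature. In Notch signalling the released fragment joins RBPJ on DNA and drives targets such as HES1, and GSI compounds block that step.

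RefSeq start site windows (GRCh38.p14, 250 bases before to 50 after the start) were matched for 7 of the 9 genes: PSEN2, NCSTN, APH1A, PSENEN, ADAM10, ADAM17 and BACE1, the last with 3 windows. APH1B and BACE2 were not matched. Each of 3 members starts close to a gene that runs the other way: PSEN2 66 bp from LOC105373119, a long noncoding RNA gene not among the genes tested here, NCSTN 133 bp from COPA (a coat protein of Golgi transport vesicles) and PSENEN 233 bp from U2AF1L4 (a splicing factor paralogue). The bases between the starts are printed for the latter pairs, since both genes of each were measured on the arrays. They lie at chr1:160343251-160343382 and chr19:35745419-35745650, on the plus strand, and capitals mark TGGGAA, the core of the site that RBPJ recognises.
COPA to NCSTN: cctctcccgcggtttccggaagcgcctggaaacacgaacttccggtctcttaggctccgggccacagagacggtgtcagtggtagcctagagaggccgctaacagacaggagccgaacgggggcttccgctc
U2AF1L4 to PSENEN: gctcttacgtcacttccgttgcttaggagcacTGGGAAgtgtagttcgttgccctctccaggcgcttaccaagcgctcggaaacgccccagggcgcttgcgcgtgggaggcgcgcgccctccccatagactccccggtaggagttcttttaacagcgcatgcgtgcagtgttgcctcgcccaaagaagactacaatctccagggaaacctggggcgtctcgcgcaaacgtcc
TGGGAA, sought on both strands, was present in 24.0% of all 35116 windows of 300 bases and in windows of 2 of the 7 matched genes, PSENEN and BACE1. A match is only a description of the letters. The 6 genes with a single window held between 22 and 38 CpG dinucleotides, PSENEN fewest and PSEN2 most, against a median of 14 over all windows. The 3 BACE1 windows held 17, 4 and 2.

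Values are log2 of the deposited RMA intensity, given for the brightest probe set of each gene, and differences are log2 differences ± SE from limma with Benjamini-Hochberg adjustment over 19775 genes; "passed" means adjusted p under 0.05. The number of arrays limits the precision, with a median SE of 0.087 for a difference between 2 groups of 4. Arrays differed in mean intensity, which was 468 to 496 on the 4 A549 vehicle arrays of 6 h, 496 and 531 on A549 GSI 6 h replicates 1 and 2, 583 and 589 on replicates 3 and 4 of that group, and 570 to 613 on the other 24. The log2 medians of all 32 arrays lay between 6.56 and 6.67. Those of the 4 A549 vehicle arrays of 6 h were 6.63 to 6.67, so their low mean did not go with a low median. H460a vehicle 6 h replicate 3 had an actin 3′ to 5′ log2 difference of 2.19, against 0.14 to 0.42 on the other 31 arrays. Of 6 epithelial markers 5 lay above the array median in A549 and 4 in H460a. KRT8 measured 13.6 and 12.9 and KRT18 14.7 and 13.8. CDH1 measured 10.3 in A549 and 4.57 in H460a and EPCAM 5.6 and 4.76. The leukocyte gene PTPRC (5.27 and 5.2) and the endothelial gene CDH5 (4.91 and 4.89) were below the array medians of 6.56 to 6.67. Above those medians were 5 of 7 alveolar type II markers in each line, 4 and 6 of 7 fibroblast markers, 2 of 4 leukocyte markers in each, led by CD14 (8.8 and 8.63), and 2 and 3 of 5 endothelial markers; KDR measured 5.15 in A549 and 8.58 in H460a. Their part in the results was not tested. HES1 fell by 1.63 ± 0.13 in A549 at 6 h (limma adjusted p = 8.67e-10) and by 2.18 ± 0.13 at 24 h (adjusted p = 1.29e-13); in H460a its differences were -0.35 (adjusted p = 0.324) and -0.29 (adjusted p = 0.823).

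The largest difference between vehicle-treated lines was that of BACE2, at -1.82 for A549 minus H460a on the log2 scale, and the largest over culture time in vehicle was that of NCSTN in H460a, at 0.67. All 9 genes differed between vehicle-treated lines, 4 higher and 5 lower in A549, where 28.8% and 27.9% of all genes were. With time in vehicle, 4 rose and 1 fell in A549, where 29.2% and 15% of all genes did, and 4 rose and 1 fell in H460a, where 15.1% and 15.3% did. With GSI, ADAM10 and ADAM17 were higher in A549 at 6 h under the deposited scaling, as were 11.6% of all genes, and none passed in the other 3 GSI comparisons. In RNA from whole cultures, fewer cells expressing a gene and less RNA per cell cannot be told apart.

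**Figure D1:**
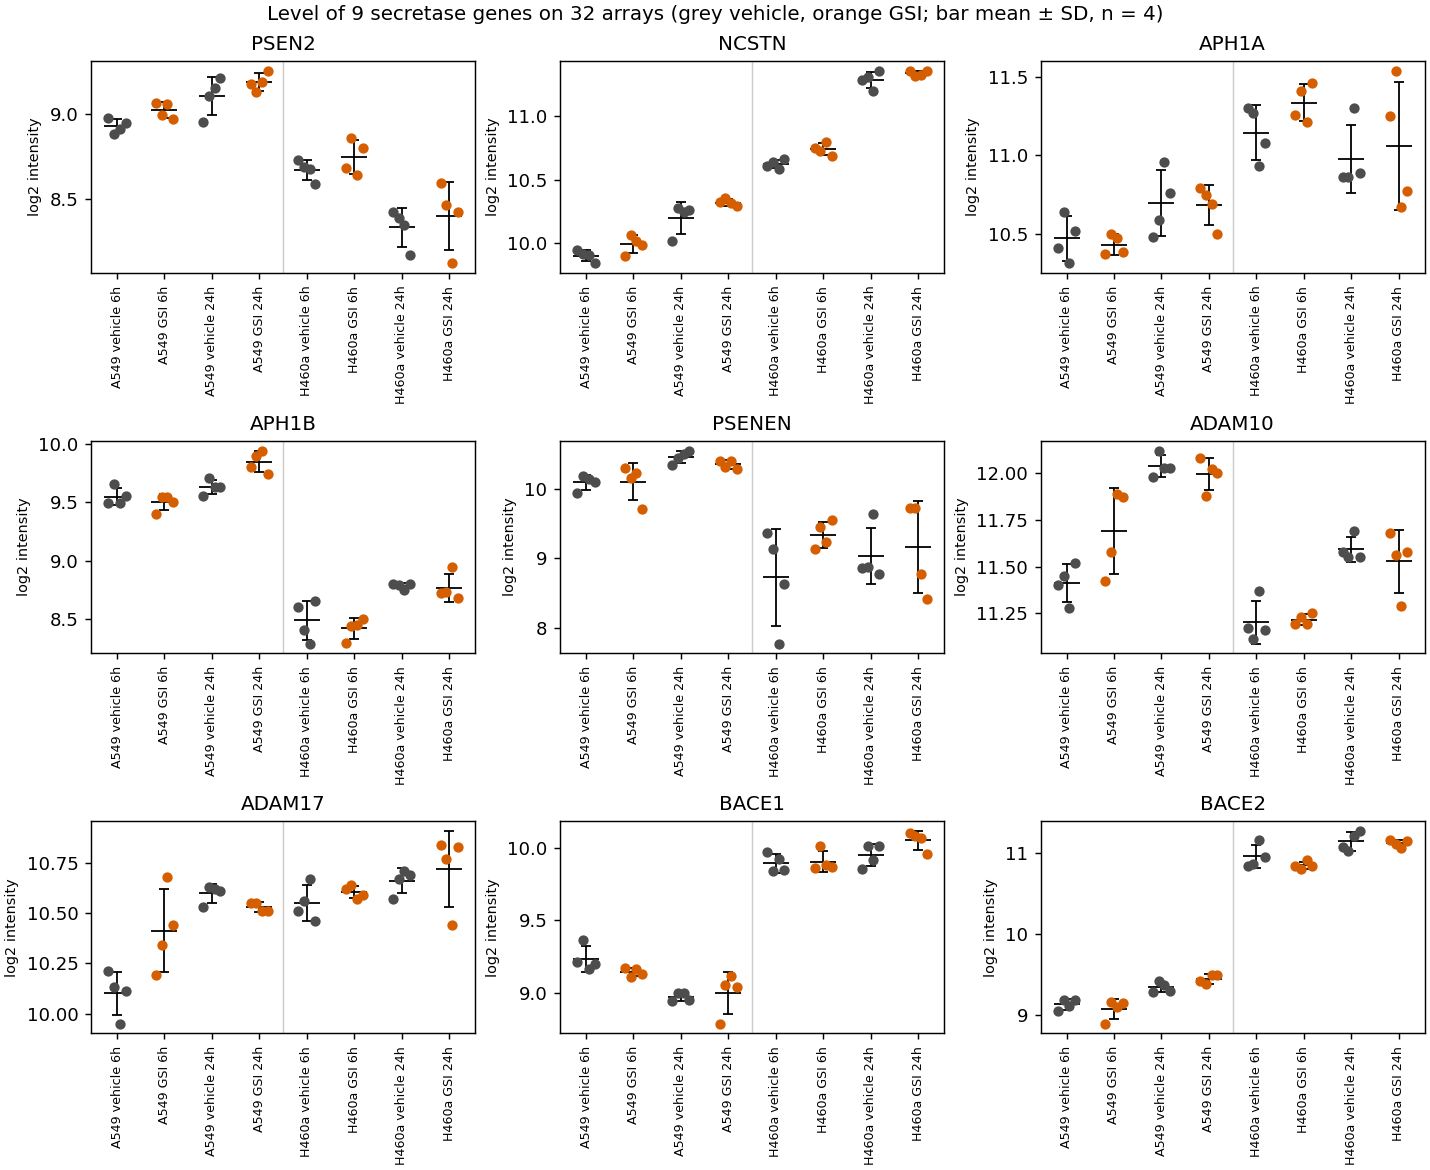
Log2 intensity (y axis, separate range per gene) of the 9 genes on each of the 32 arrays in the 8 groups (x axis), with vehicle in grey, GSI in orange and bars at the mean ± SD of 4 arrays. BACE2 arrays lie between 8.90 and 9.50 in A549 and between 10.81 and 11.28 in H460a, and PSENEN spreads from 7.77 to 9.73 within H460a.

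Group means ± SD (n = 4 arrays) are given in the order vehicle 6 h, GSI 6 h, vehicle 24 h and GSI 24 h, as log2 intensity, and levels are not compared between genes. PSEN2 averaged 8.93 ± 0.04, 9.03 ± 0.047, 9.11 ± 0.11 and 9.19 ± 0.052 in A549, and 8.67 ± 0.06, 8.75 ± 0.1, 8.33 ± 0.11 and 8.40 ± 0.2 in H460a. With the groups ordered by mean, neighbours differed by more than the sum of their SDs at 3 places: A549 GSI 6 h over A549 vehicle 6 h, that group over H460a GSI 6 h, and H460a vehicle 6 h over H460a GSI 24 h. NCSTN averaged 9.89 ± 0.044, 9.99 ± 0.073, 10.19 ± 0.12 and 10.32 ± 0.023 in A549, and 10.62 ± 0.033, 10.74 ± 0.045, 11.29 ± 0.067 and 11.34 ± 0.023 in H460a. The H460a groups came first, and the 4 steps beyond the SDs were H460a vehicle 24 h to H460a GSI 6 h, on to H460a vehicle 6 h, on to A549 GSI 24 h, and A549 vehicle 24 h to A549 GSI 6 h. APH1A averaged 10.47 ± 0.14, 10.43 ± 0.065, 10.70 ± 0.21 and 10.68 ± 0.13 in A549, and 11.15 ± 0.17, 11.34 ± 0.12, 10.98 ± 0.21 and 11.06 ± 0.41 in H460a. From H460a GSI 6 h down to A549 GSI 6 h, no step between neighbouring groups exceeded the sum of their SDs. APH1B averaged 9.55 ± 0.076, 9.50 ± 0.069, 9.63 ± 0.062 and 9.85 ± 0.089 in A549, and 8.49 ± 0.17, 8.42 ± 0.086, 8.78 ± 0.023 and 8.77 ± 0.12 in H460a. A549 GSI 24 h stood above A549 vehicle 24 h, and the lowest A549 group above the highest H460a group, by more than the SDs; the other neighbours did not. PSENEN averaged 10.10 ± 0.11, 10.10 ± 0.27, 10.46 ± 0.089 and 10.35 ± 0.061 in A549, and 8.73 ± 0.7, 9.34 ± 0.19, 9.04 ± 0.41 and 9.16 ± 0.67 in H460a. A549 vehicle 24 h was highest and H460a vehicle 6 h lowest, and the one step beyond the SDs was that from A549 vehicle 6 h to H460a GSI 6 h, between the lines.

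The sheddases are given in the same order of groups. ADAM10 averaged 11.41 ± 0.099, 11.69 ± 0.23, 12.04 ± 0.059 and 12 ± 0.083 in A549, and 11.21 ± 0.12, 11.22 ± 0.029, 11.59 ± 0.064 and 11.53 ± 0.17 in H460a. Groups of both lines were mixed in the order, and the one step beyond the SDs was from A549 vehicle 6 h to H460a GSI 6 h, near its low end. ADAM17 averaged 10.10 ± 0.11, 10.41 ± 0.2, 10.60 ± 0.046 and 10.53 ± 0.022 in A549, and 10.55 ± 0.09, 10.60 ± 0.031, 10.66 ± 0.062 and 10.72 ± 0.19 in H460a. A549 vehicle 6 h was lowest and the only group set off from its neighbour, A549 GSI 6 h, by more than the SDs. BACE1 averaged 9.23 ± 0.087, 9.14 ± 0.029, 8.97 ± 0.031 and 9.00 ± 0.14 in A549, and 9.89 ± 0.064, 9.90 ± 0.07, 9.95 ± 0.077 and 10.05 ± 0.064 in H460a. The lowest H460a group, vehicle 6 h, stood above the highest A549 group, vehicle 6 h, beyond the SDs, and no other neighbours did. BACE2 averaged 9.13 ± 0.065, 9.07 ± 0.12, 9.35 ± 0.06 and 9.45 ± 0.057 in A549, and 10.96 ± 0.14, 10.85 ± 0.051, 11.15 ± 0.12 and 11.13 ± 0.044 in H460a. The steps beyond the SDs were H460a GSI 6 h to A549 GSI 24 h, between the lines, and A549 vehicle 24 h to A549 vehicle 6 h.

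The subunits of gamma-secretase did not share a direction between the lines. PSEN2, the presenilin measured here, APH1B and PSENEN were higher in A549, and NCSTN and APH1A were higher in H460a. Over the 9 genes, 4 were higher and 5 lower in A549 than in H460a in vehicle, where 28.8% and 27.9% of all genes were, so that most genes on the arrays differed between these lines.

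PSENEN showed the largest line difference of the subunits. Over the 16 arrays of each line it ran from 9.71 through a median of 10.3 to 10.55 in A549, and from 7.77 through 9.14 to 9.73 in H460a. The lines met only at the ends of these ranges, where the lowest A549 array (GSI 6 h replicate 4) lay just under the 2 highest H460a arrays. In vehicle, where the lines did not overlap, the difference was 1.40 ± 0.17 (2.64-fold higher in A549, limma adjusted p = 1.29e-08), and in GSI it was 0.98 ± 0.17 (adjusted p = 9.39e-06). With array weights these were 1.3 and 0.84. The lowest H460a array, at 7.77, was vehicle 6 h replicate 3, the array with the actin value of 2.19. PSENEN has a single probe set, and its replicate SD in H460a was 0.53, above that of 99.8% of genes.

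APH1B, one of the alternative scaffold subunits, ran from 9.40 to 9.94 in A549 and from 8.29 to 8.95 in H460a. No H460a array reached the A549 range. The difference in vehicle was 0.95 ± 0.05 (1.94-fold higher in A549, limma adjusted p = 1.33e-17), and its second probe set gave 0.56. The other scaffold subunit, APH1A, ran the opposite way: the difference in vehicle was -0.48 ± 0.09 (adjusted p = 4.3e-05), and the vehicle arrays of the lines overlapped, from 10.31 to 10.96 in A549 and 10.86 to 11.3 in H460a. Its other probe sets gave -0.32, which did not pass, and -0.65, on a dim probe set.

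NCSTN, the substrate receptor of the complex, ran from 9.83 to 10.35 in A549 and from 10.58 to 11.36 in H460a. The highest A549 array was below the lowest H460a array. The difference in vehicle was -0.91 ± 0.04 (1.88-fold lower in A549, limma adjusted p = 5.6e-20). Its neighbour COPA was also lower in A549, by a difference of -0.36 ± 0.06 (adjusted p = 3.18e-06). A second NCSTN probe set had a mean of 5.68 over all arrays, below the array medians, and gave -0.11, which did not pass. PSEN2 ran from 8.89 to 9.26 in A549 and from 8.12 to 8.86 in H460a, again without overlap, and was 0.52 ± 0.05 higher in A549 (1.43-fold, adjusted p = 2.71e-10), with all 3 probe sets passing in that direction. U2AF1L4, next to PSENEN, was 0.41 ± 0.04 higher in A549 (adjusted p = 2.91e-10).

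Among the sheddases, both BACE genes were lower in A549 and ADAM10 was higher, while the ADAM17 probe sets disagreed. BACE2, the aspartyl protease closest to BACE1, ran from 8.90 through a median of 9.24 to 9.50 in A549 and from 10.81 through 11.05 to 11.28 in H460a. More than 1 log2 unit separated the closest arrays of the lines. The difference in vehicle was -1.82 ± 0.05 (3.53-fold lower in A549, limma adjusted p = 4.64e-26). A second probe set gave -1.84. The dimmest was lower in A549 too, but its A549 vehicle arrays of 6 h measured 4.90, 5.22, 4.77 and 4.93, under the array medians, so its difference of -3.08 is not an exact size.

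BACE1 ran from 8.79 to 9.36 in A549 and from 9.84 to 10.1 in H460a, with no overlap. It was 1.76-fold lower in A549 (-0.82 ± 0.05, limma adjusted p = 2.89e-17), and its other 3 probe sets gave -1.03, -0.63 and -1.08, all past the threshold. ADAM10, the sheddase that cuts Notch at the cell surface, was 0.33 ± 0.06 higher in A549 (1.26-fold, adjusted p = 1.66e-05), with overlapping arrays. The lowest A549 vehicle array measured 11.28 and the highest H460a vehicle array 11.69. Its other probe sets gave 0.13, which did not pass, and 0.18, which did.

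ADAM17, the tumour necrosis factor converting enzyme, gave opposite directions by probe set. The brightest was lower in A549 by a difference of -0.26 ± 0.06 (limma adjusted p = 2.19e-04), and the second gave -0.28. The third was 1.15 ± 0.20 higher in A549 (adjusted p = 5.98e-06 over all probe sets). With the mean of the probe sets in place of the brightest, the ADAM17 line difference was 0.21 in vehicle and 0.21 in GSI, both past the threshold and opposite in sign to the brightest probe set. On the third probe set the H460a vehicle arrays measured 8.14, 7.91, 6.96 and 7.57 at 6 h and 7.77, 7.71, 8.30 and 7.36 at 24 h, and the H460a GSI arrays measured 8.10, 8.55, 8.12 and 8.67 at 6 h and 8.24, 8.51, 6.89 and 6.59 at 24 h. Over the 16 H460a arrays this probe set had r = 0.87 with PSENEN and 0.90 with APH1A, and 0.034 with the brightest ADAM17 probe set. The arrays share processing and RNA quality, and no test was made of these correlations.

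**Figure D2:**
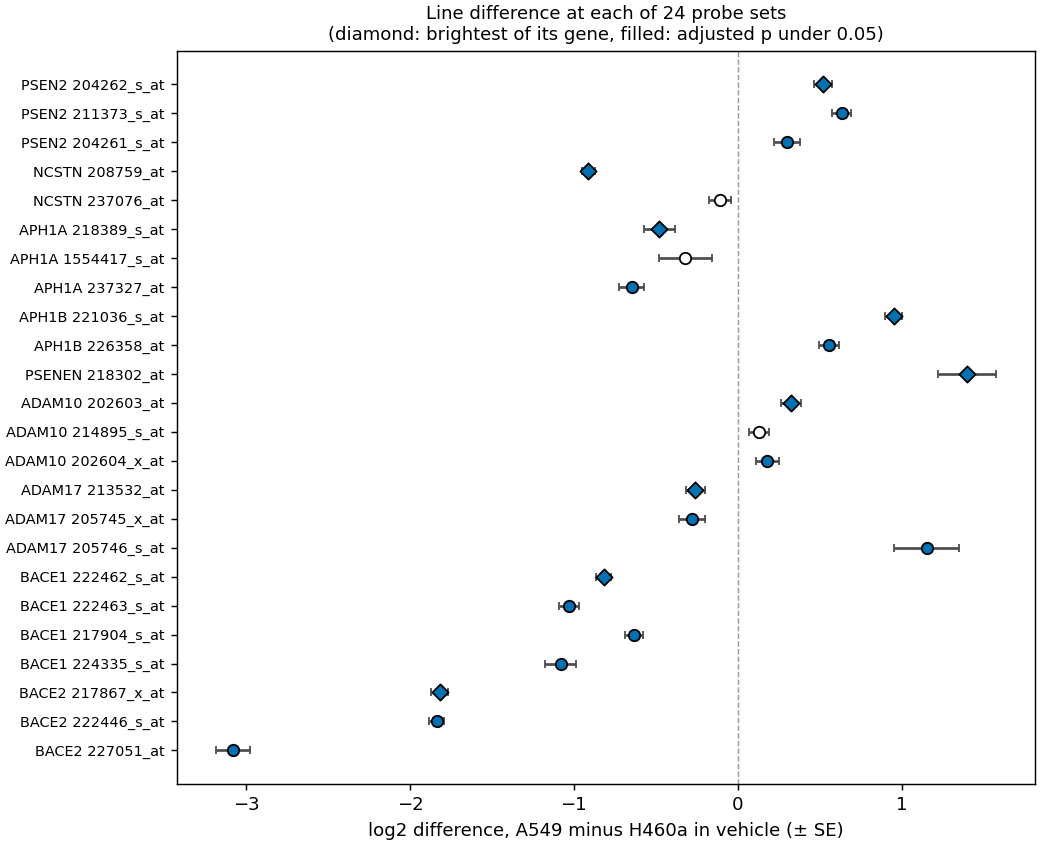
Log2 difference of A549 minus H460a in vehicle (x axis, ± SE) for each of the 24 probe sets (y axis); diamonds are the brightest probe set of a gene and filled points passed. All BACE1 and BACE2 probe sets lie left of 0, all PSEN2, APH1B, PSENEN and ADAM10 probe sets right of it, and the ADAM17 probe sets fall on both sides, at -0.26, -0.28 and 1.15.

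The directions held in the GSI arrays, with 4 genes higher and 5 lower in A549 against 28.5% and 26.4% of all genes. BACE2 was at -1.73, BACE1 at -0.90, NCSTN at -0.89, APH1A at -0.64, ADAM17 at -0.19, ADAM10 at 0.47, PSEN2 at 0.54 and APH1B at 1.08. For NCSTN, APH1A, BACE1 and BACE2, every H460a group mean lay above every A549 group mean, and for PSEN2, APH1B and PSENEN every A549 group mean lay above every H460a one. The step between the lines exceeded the sum of the SDs of the adjacent groups for NCSTN (0.31), PSEN2 (0.18), APH1B (0.71), PSENEN (0.75), BACE1 (0.66) and BACE2 (1.4). For APH1A that step was 0.28 and did not exceed it, and ADAM10 and ADAM17 had groups of both lines mixed in order.

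List counts between the lines in vehicle, A549 minus H460a, are read against the 28.8% of all genes that were higher and the 27.9% that were lower (31.6% and 25.1% with quantile normalization). All 6 TspanC8 tetraspanins, which escort ADAM10 to the surface, were past the threshold, 5 higher and 1 lower in A549, with a list median of 0.53 against 0.02 over all genes. The largest were TSPAN14 (2.92 ± 0.10), TSPAN5 (1.89), TSPAN10 (0.62) and TSPAN15 (0.44). Of 12 ADAM17 partners and proprotein convertases, 4 were higher and 6 lower (median -0.02). SFRP1, which the list also held although it is neither of these, was at 5.17, and the convertase PCSK5 was at -2.12. FRMD8 (0.92) and RHBDF2 (0.75), which hold ADAM17 in its surface complex, were higher in A549. Of 17 measured BACE1 trafficking genes and regulators, 6 were higher and 5 lower (median -0.04), and with quantile normalization 10 and 3. The reticulon genes RTN1 (-6.59), RTN2 (1.26) and RTN3 (1.14) led the list, followed by the retromer subunit VPS29 (-0.46). Calls were common in these lists and over all genes alike, and nothing is read from the counts about the lists.

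The same shares over all genes apply to the other lists. Among 13 measured accessory and trafficking factors of gamma-secretase, 3 were higher and 6 lower in A549 (median -0.11), and with quantile normalization 5 and 3. IFITM3 was at -2.52, GSAP, the gamma-secretase activating protein, at -2.29, UBQLN1 at -0.77 and ARRB1 at 0.53. Other intramembrane-cleaving proteases gave 6 higher and 2 lower of 12 (median 0.15), with ZMPSTE24 at -0.73, SPPL3 at 0.47, RHBDL3 at 0.38 and MBTPS2, the site-2 protease, at -0.32. The other ADAM and membrane-type metalloproteases gave 5 higher and 7 lower of 18 (median -0.09), with MMP16 at -3.33, ADAM23 at -1.73, ADAM19 at 1.67 and MMP24 at 1.35. Substrates gave 18 higher and 17 lower of 45 (median -0.03). CHL1, a neural adhesion molecule cut by BACE1, was at -5.62, CDH1, the epithelial cadherin, at 5.40, PTPRK, a receptor phosphatase, at 4.34 and L1CAM at -3.41. Growth factor precursors and related shed proteins gave 7 higher and 5 lower of 13 (median 0.17), with EREG at 6.47, EGF at -3.56, LRIG1 at 1.78 and NRG1 at 1.72. For 10 of the 32 genes named in these lists the mean of the lower line was under 6.56, the lowest array median, so their differences are not exact sizes: SFRP1, TSPAN5, CDH1, PTPRK and EREG in H460a, and PCSK5, RTN1, MMP16, CHL1 and EGF in A549.

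With time in culture, NCSTN and ADAM10 rose in both lines and APH1B rose in H460a, while PSEN2 fell in H460a and BACE1 fell in A549. In A549 vehicle arrays 4 of 9 genes were higher and 1 lower at 24 h than at 6 h, where 29.2% and 15% of all genes were. In H460a vehicle arrays 4 were higher and 1 lower, where 15.1% and 15.3% were. The scaling matters in A549: the 9888 genes above the median level had a median change of 0.21 over time there, which quantile normalization of all arrays brought to -0.03, and the shares of all genes higher and lower then became 16.6% and 22.1%. In H460a the same median was -0.001 before and 0.001 after.

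NCSTN had the clearest time change of the subunits, and it was in H460a. Its H460a vehicle arrays measured 10.61, 10.64, 10.58 and 10.66 at 6 h and 11.29, 11.31, 11.2 and 11.36 at 24 h. Every array of 24 h lay above every array of 6 h. The difference was 0.67 ± 0.06 (1.59-fold, limma adjusted p = 3.21e-11), and quantile normalization left it at 0.67. In A549 vehicle arrays the values were 9.94, 9.91, 9.90 and 9.83 at 6 h and 10.01, 10.27, 10.24 and 10.26 at 24 h. The change of 0.30 ± 0.06 (adjusted p = 7.28e-05) became 0.04 (adjusted p = 0.657) with quantile normalization. The dim second probe set gave -0.02 in A549 and -0.06 in H460a and did not pass. COPA rose by 0.29 in A549 (adjusted p = 0.00601) and 0.25 in H460a (adjusted p = 0.0219) in vehicle; in the GSI arrays COPA was at 0.01 over time in A549 (adjusted p = 0.953), where NCSTN was at 0.33, and at 0.27 in H460a (adjusted p = 0.0144).

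PSEN2 fell in H460a. The H460a vehicle arrays measured 8.73, 8.69, 8.68 and 8.59 at 6 h and 8.42, 8.39, 8.35 and 8.17 at 24 h. The groups did not overlap, and the difference was -0.34 ± 0.08 (1.27-fold lower, limma adjusted p = 5.89e-04), with 2 of 3 probe sets passing. In A549 the difference was 0.18 (adjusted p = 0.0556). APH1B in H460a vehicle arrays measured 8.60, 8.41, 8.29 and 8.66 at 6 h, all below the 24 h arrays at 8.80, 8.79, 8.75 and 8.80, a rise of 0.30 ± 0.07 (adjusted p = 0.00145). In A549 vehicle arrays APH1B was at 0.08 by its brightest probe set, which did not pass, and at 0.42 by the second, which did. APH1A (0.23 and -0.17) and PSENEN (0.37 and 0.31) did not pass in A549 or H460a vehicle arrays. With array weights APH1A in H460a passed, at -0.29 (limma adjusted p = 0.0494), and PSENEN there was at -0.09, and with quantile normalization APH1A in A549 was at -0.06.

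ADAM10 and ADAM17 rose together in A549 vehicle arrays. ADAM10 measured 11.4, 11.45, 11.28 and 11.52 at 6 h and 11.98, 12.12, 12.03 and 12.03 at 24 h. ADAM17 measured 10.21, 10.13, 9.95 and 10.11 at 6 h and 10.53, 10.63, 10.62 and 10.61 at 24 h. The time groups did not overlap for either gene. The changes were 0.62 ± 0.09 (limma adjusted p = 6.39e-07) and 0.50 ± 0.08 (adjusted p = 8.4e-06). Quantile normalization left ADAM10 at 0.26 (adjusted p = 0.000819) and ADAM17 at 0.23 (adjusted p = 0.0027). The other ADAM10 probe sets gave 0.33, which passed, and 0.21, and the other ADAM17 probe sets 0.27 and 0.24, which did not. In H460a vehicle arrays ADAM10 measured 11.17, 11.11, 11.37 and 11.16 at 6 h and 11.58, 11.55, 11.69 and 11.55 at 24 h, a rise of 0.39 ± 0.09 (adjusted p = 5.29e-04) that all 3 probe sets showed past the threshold, and ADAM17 was at 0.11, which did not pass.

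BACE1 fell with time in A549, from 9.21, 9.36, 9.17 and 9.20 at 6 h to 8.94, 9.00, 9.00 and 8.95 at 24 h. The groups did not overlap, and the difference was -0.26 ± 0.06 (limma adjusted p = 0.00117), or -0.49 with quantile normalization. Only the brightest of the 4 BACE1 probe sets passed; the others were at -0.08, 0.14 and 0.06, and their mean with the brightest gave -0.03. BACE2 rose by 0.21 ± 0.07 in A549 (adjusted p = 0.013), where quantile normalization gave -0.00049, and by 0.19 ± 0.07 in H460a (adjusted p = 0.0336). The H460a call was lost without vehicle 6 h replicates 1, 2 or 4 or vehicle 24 h replicates 3 or 4, where the difference was 0.15 to 0.19 (adjusted p up to 0.144). In A549 the second BACE2 probe set was at 0.42 as deposited and passed; the dimmest lay under the array medians at both times and is not counted.

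The GSI arrays, a separate set from the vehicle arrays, gave the time comparison again. In A549, 4 genes were higher and 0 lower, where 14.5% and 4.22% of all genes were (9.89% and 7.6% with quantile normalization). NCSTN was at 0.33, APH1B at 0.35, ADAM10 at 0.31 and BACE2 at 0.37, all past the threshold, and ADAM17 at 0.12 and BACE1 at -0.15 were not. In H460a, 4 were higher and 1 lower, where 14.7% and 18.2% of all genes were. NCSTN was at 0.60, APH1B at 0.35, ADAM10 at 0.31, BACE2 at 0.28 and PSEN2 at -0.35, all past the threshold. With quantile normalization NCSTN in A549 stayed past the threshold at 0.22 (limma adjusted p = 0.00547), ADAM10 did not, at 0.16 (adjusted p = 0.0642), and BACE1 passed, at -0.25 (adjusted p = 0.00272). In the H460a GSI arrays quantile normalization added ADAM17, at 0.20 (adjusted p = 0.00897), and BACE1, at 0.24 (adjusted p = 0.00202), the latter opposite in sign to A549. These values are those of the brightest probe sets. With the mean of probe sets under the deposited scaling, ADAM17 was at -0.17 and BACE1 at -0.03 in H460a GSI arrays, and neither passed. BACE1 in A549 GSI arrays was then at -0.00085.

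The time change in vehicle differed between the lines for 4 of 9 genes, where 35.5% of all genes did (11.1% higher in H460a and 24.4% lower as deposited, 16.8% and 14.2% with quantile normalization). The difference, H460a minus A549, was -0.52 ± 0.11 for PSEN2 (limma adjusted p = 2.93e-04), 0.37 ± 0.08 for NCSTN (adjusted p = 5.14e-04), -0.39 ± 0.12 for ADAM17 (adjusted p = 0.00784) and 0.32 ± 0.09 for BACE1 (adjusted p = 0.00603). With quantile normalization PSEN2 was at -0.31, NCSTN at 0.64 and BACE1 at 0.58, still past the threshold. ADAM17 was then at -0.09 (adjusted p = 0.424), and APH1B passed at 0.45. With the mean of probe sets NCSTN (0.16), ADAM17 (-0.25) and BACE1 (0.03) did not pass, and BACE2 did, at -0.305.

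**Figure D3:**
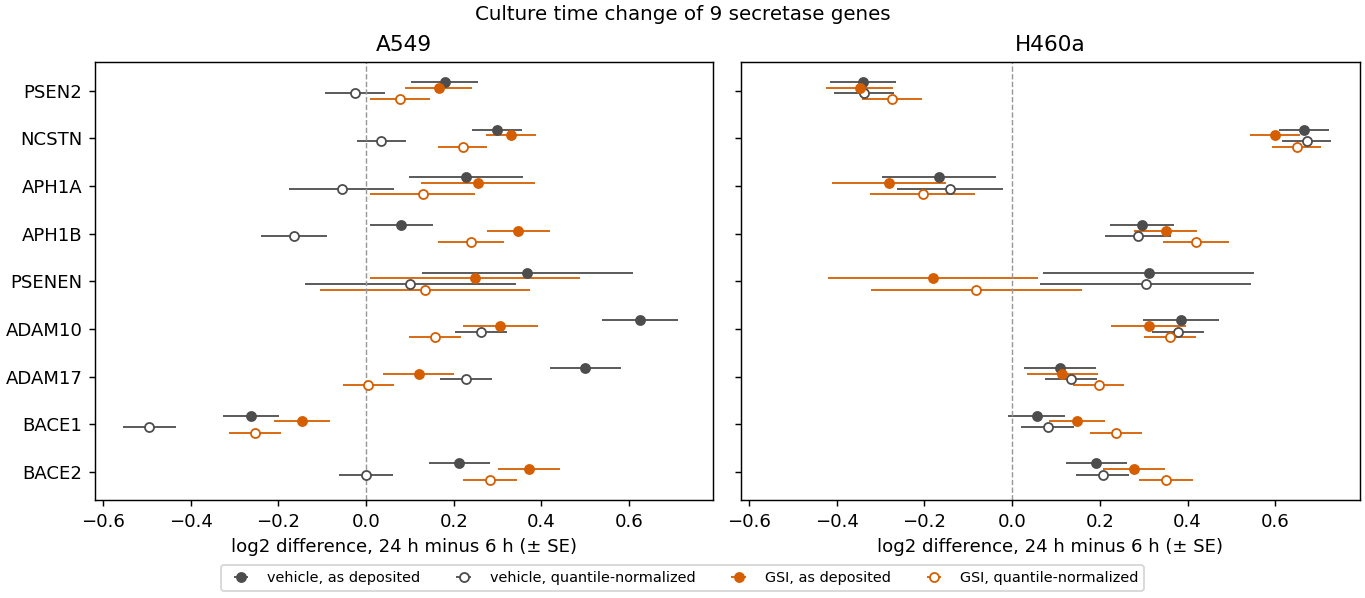
Log2 difference of 24 h minus 6 h (x axis, ± SE) for the 9 genes (y axis) in A549 (left) and H460a (right), in vehicle (grey) and GSI (orange) arrays, with filled points for deposited values and open points after quantile normalization. In A549 vehicle the NCSTN value moves from 0.30 to 0.04 between the scalings, and in H460a it is 0.67 in both.

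The list counts over time in vehicle are read against the 29.2% of all genes that were higher and 15% lower in A549 (16.6% and 22.1% with quantile normalization) and the 15.1% and 15.3% in H460a (16.4% and 15.7%). ADAM17 partners and proprotein convertases had 5 higher and 2 lower of 12 in A549 (3 and 4 with quantile normalization; median 0.05) and 3 higher and 1 lower in H460a (6 and 1; median 0.17). PCSK5 rose by 0.94 in A549, from a 6 h mean of 6.07 under the array medians, and by 0.75 in H460a, and RECK, a membrane-anchored metalloprotease inhibitor, by 0.66 and 0.45, past the threshold under both scalings. FURIN, the convertase that matures ADAM proteases, rose by 0.70 in H460a and by 0.36 in A549, where quantile normalization gave 0.11 (limma adjusted p = 0.223). PLK2 rose by 0.73 in A549, and FRMD8 was at -0.30 in H460a. ADAM9, a related metalloprotease, rose by 0.86 in A549 and 0.53 in H460a under both scalings. Its list had 1 higher and 3 lower of 18 in A549 (1 and 4; median -0.09), with ADAM19 at -0.35, MEP1A at -0.28 (under the array medians at both times, and not passing with quantile normalization) and MMP14 at -0.25, and 4 and 0 in H460a (4 and 0; median 0.03), with ADAM15 at 0.40, ADAM22 at 0.32 and ADAM23 at 0.23. TspanC8 genes had 1 higher and 1 lower of 6 in A549 (1 and 2; median 0.05), TSPAN15 at 0.47 and TSPAN10 at -0.38, and 0 and 3 in H460a (0 and 3; median -0.09), TSPAN5 at -0.26 (24 h mean under the array medians), TSPAN17 at -0.25 and TSPAN33 at -0.22.

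Of the accessory and trafficking factors, 9 rose and 1 fell of 13 in A549 (4 and 2 with quantile normalization; median 0.35, against 0.21 over the genes above the median level and 0.01 over all genes) and 6 rose and 1 fell in H460a (5 and 1; median -0.01). GSAP rose by 0.93 in A549 and 0.38 in H460a, and BSG by 0.92 and 0.81. ERLIN2 (0.76) and TMED2 (0.60) rose in A549. With quantile normalization TMED2 was at 0.15 (limma adjusted p = 0.0528) and BSG in A549 at 0.50 (adjusted p = 0.0521), neither past the threshold. IFITM3 (0.72) and TMEM59 (0.68) rose in H460a. BACE1 trafficking genes had 10 higher and 1 lower of 17 in A549 (5 and 5; median 0.29), led by SNX6 (0.63), SNX4 (0.60), ARF6 (0.56) and RAB11A (0.55), and 2 and 4 in H460a (2 and 4; median -0.05), with RTN1 at 0.47, RTN2 at 0.43, VPS29 at -0.37 and GGA3 at -0.22. Intramembrane-cleaving proteases had 5 and 2 of 12 in A549 (1 and 3; median 0.01), with MBTPS2 at 0.56, SPPL2A at 0.37, HM13 at 0.36 and RHBDL3 at -0.36 (SPPL2A and HM13 did not pass with quantile normalization), and 1 and 5 in H460a (2 and 4; median 0.03), with ZMPSTE24 at -0.52, HM13 at -0.37, RHBDL1 at 0.33 (under the array medians at both times) and RHBDL3 at -0.33.

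Substrates had 22 higher and 4 lower of 45 in A549 (15 and 7 with quantile normalization; median 0.20) and 19 and 7 in H460a (20 and 7; median 0.16). CDH1 rose by 0.95, JAG1, a Notch ligand, by 0.83, CD44 by 0.75 and IL6R by 0.70 in A549. CHL1 rose by 1.59, IGF1R by 0.83 and CXCL16 by 0.78 in H460a, where SDC1 fell by 0.83. Growth factor precursors and related shed proteins had 6 and 1 of 13 in A549 (5 and 1; median 0.12), with LRIG1 at 1.25, KITLG at 0.52, ULBP2 at 0.45 and SDC4 at 0.42 (0.17 with quantile normalization, which did not pass), and 1 and 3 in H460a (1 and 3; median -0.02), with EGF at 0.78, MICB at -0.52, KITLG at -0.28 and HBEGF at -0.23.

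The GSI comparisons ask whether treatment with the inhibitor went with a change in transcripts of the enzyme's own subunits and of the proteases that act before it. Block of the enzyme itself was not measured, and HES1 did not pass in H460a at either time. No gamma-secretase subunit passed in any of the 4 comparisons. In A549 at 6 h, 2 of 9 genes were higher and 0 lower, where 11.6% and 1.51% of all genes were. ADAM10 measured 11.4, 11.45, 11.28 and 11.52 in vehicle and 11.42, 11.58, 11.89 and 11.87 in GSI. ADAM17 measured 10.21, 10.13, 9.95 and 10.11 in vehicle and 10.19, 10.34, 10.68 and 10.44 in GSI. For ADAM10 GSI replicate 1 lay within the vehicle range and replicates 2, 3 and 4 above it, and the same held for ADAM17. The differences were 0.28 ± 0.09 (limma adjusted p = 0.0308) and 0.31 ± 0.08 (adjusted p = 0.0129). The other ADAM10 probe sets were at 0.16 and 0.21 and did not pass. Of the other ADAM17 probe sets, the second was at 0.35 and passed, and the third was at -0.03. With the mean of probe sets neither gene passed (adjusted p = 0.0656 and 0.229).

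GSI replicates 3 and 4 of this group are those with a mean intensity of 583 and 589, while no A549 vehicle array of 6 h exceeded 496. The median difference of the genes above the median level was 0.13, and quantile normalization brought it to -0.01; the shares of all genes higher and lower became 1.34% and 1.48%. ADAM10 was then at 0.06 (limma adjusted p = 0.588) and ADAM17 at 0.16 (adjusted p = 0.122), and BACE1 alone passed, at -0.22 (adjusted p = 0.0428). Quantile normalization within each line gave BACE1 at -0.21, which did not pass. With the mean of probe sets under the deposited scaling BACE1 was at 0.02 (limma adjusted p = 0.853). Leaving out A549 GSI 6 h replicates 3 and 4 together with H460a vehicle 6 h replicate 3 left 0 of 9, with ADAM10 at 0.09 and ADAM17 at 0.17. The A549 pair left out lay within the intensity range of the other 24 arrays and held the 2 highest GSI values of both genes, so this choice of arrays lowers both differences by construction. The 4 vehicle arrays of low intensity are the whole control group and could not be left out. Leaving out GSI 6 h replicate 3, GSI 6 h replicate 4 or vehicle 6 h replicate 3 also left 0, and leaving out vehicle 6 h replicate 1 left 1.

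In A549 at 24 h, 0 of 9 genes passed in limma, where 2.21% of all genes passed. An unadjusted p under 0.05 was reached by 2 of 9. Counts at an unadjusted p, here and below, were not set against a share of all genes, and nothing is read from them about the 9 genes. APH1B measured 9.55, 9.70, 9.63 and 9.63 in vehicle and 9.80, 9.90, 9.94 and 9.74 in GSI. The groups did not overlap, and the difference of 0.22 ± 0.07 had an adjusted p of 0.137 (0.011 with array weights). The second APH1B probe set went the other way, averaging 8.51 in vehicle and 8.44 in GSI. With the mean of probe sets APH1B was at 0.07 (limma adjusted p = 0.73). NCSTN was at 0.12 (adjusted p = 0.377), with every GSI array above every vehicle array. ADAM10 was at -0.04 and ADAM17 at -0.07. The 95% intervals of the 9 genes ran from -0.61 to 0.39 at their widest, both bounds from PSENEN.

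In H460a 0 of 9 passed in limma at 6 h, where 0.0961% of all genes passed. None passed at 24 h either, where 0.00506% of all genes did. At an unadjusted p under 0.05 there were 2 of 9 at 6 h and 0 of 9 at 24 h. PSENEN at 6 h measured 9.36, 9.14, 7.77 and 8.63 in vehicle and 9.14, 9.45, 9.23 and 9.55 in GSI. The difference of 0.62 ± 0.25 (limma adjusted p = 0.347) was 0.30 without vehicle replicate 3, the array with the actin value of 2.19. At 24 h all 9 differences lay between -0.06 and 0.13 as fitted. With array weights PSENEN was then at 0.45 and APH1A at 0.31 (adjusted p = 0.411 and 0.361), and without single arrays PSENEN ran from -0.06 to 0.37 and APH1A from -0.08 to 0.21, none past the threshold.

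Averaged over lines and times, NCSTN was 0.10 ± 0.03 higher with GSI (limma adjusted p = 0.0618), and 0 of 9 genes passed, where 2.18% of all genes did. An unadjusted p under 0.05 was reached by 3 of 9. In single comparisons NCSTN was at 0.09 and 0.12 in A549 and 0.12 and 0.05 in H460a, at 6 and 24 h. With quantile normalization over all arrays the A549 values were -0.05 and 0.13 and the H460a values 0.08 and 0.06. The average was then 0.06 (limma adjusted p = 0.392), and with the mean of probe sets it was also 0.06 (adjusted p = 0.319). The adjusted p for the average ran from 0.021 to 0.392 over the alternatives with all arrays. The GSI effect did not pass as different between the lines for any of the 9 genes at 6 h or 24 h. Of all genes 0.121% passed at 6 h and 0.637% at 24 h. An unadjusted p under 0.05 was reached by 2 of 9 at 6 h and 1 of 9 at 24 h. For ADAM17 at 6 h the difference of effects was 0.26, with a 95% interval of 0.03 to 0.50 and an adjusted p of 0.279; with the mean of probe sets it was -0.02, the third ADAM17 probe set being at 0.72 in H460a and -0.03 in A549, neither past the threshold. At 24 h the highest of the 9 was that of APH1B, at 0.23. With array weights APH1B was at 0.275 (limma adjusted p = 0.0964), and with the mean of probe sets at 0.08 (adjusted p = 0.894). For BACE2 at 24 h the difference of effects was 0.13, with an interval of -0.08 to 0.33.

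**Figure D4:**
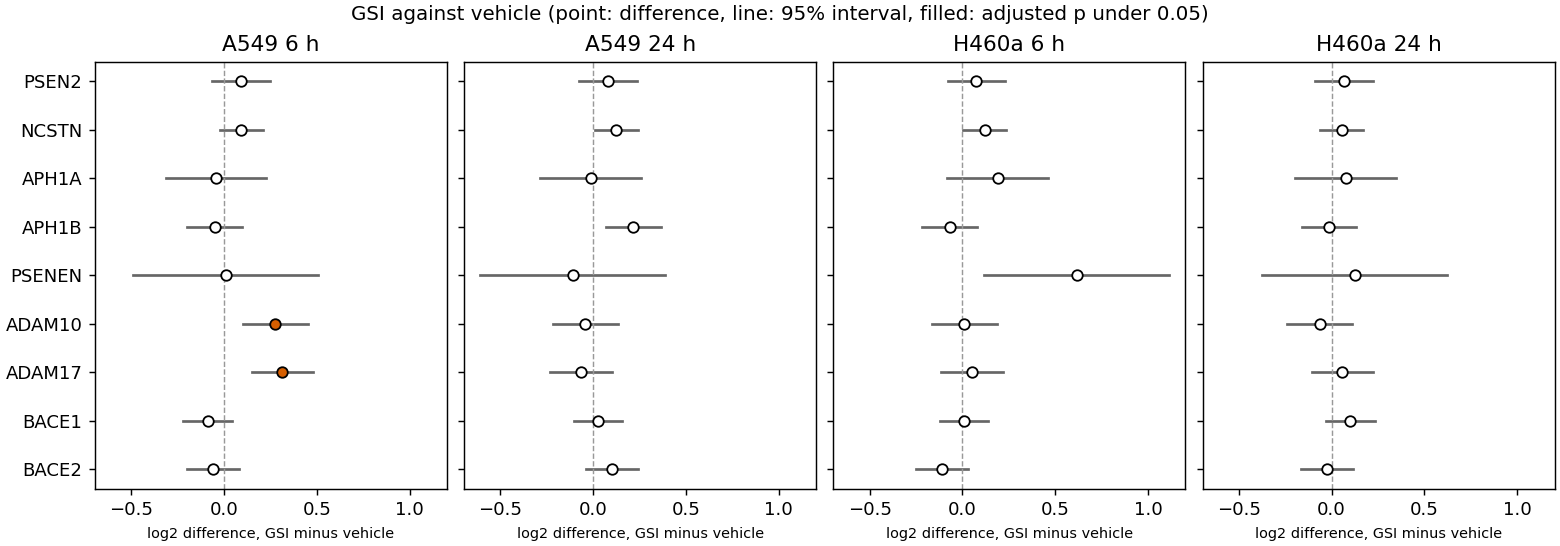
Log2 difference of GSI minus vehicle (x axis) for the 9 genes (y axis) in the 4 line and time comparisons, with 95% intervals; filled points passed. Only ADAM10 (0.28) and ADAM17 (0.31) in A549 at 6 h are filled, and the PSENEN intervals are the widest in every panel.

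Among the listed partners and substrates, most GSI calls in A549 at 6 h did not pass with quantile normalization. Of the whole set of genes, 11.6% were higher and 1.51% lower as deposited, and 1.34% and 1.48% with quantile normalization. Accessory factors had 4 higher of 13, TMED10 (0.34), TMED2 (0.34), UBQLN1 (0.28) and TMEM59 (0.27). Intramembrane proteases had 3 of 12, SPPL2A (0.28), MBTPS2 (0.23) and ZMPSTE24 (0.22). BACE1 trafficking genes had 6 of 17, led by ARF6 (0.34), RTN4 (0.32), SNX6 (0.32) and RAB11A (0.29), and ADAM17 partners 1 of 12, PLK2 (0.32). None was lower in these 4 lists as deposited; with quantile normalization 0 were higher in each, and 2 ADAM17 partners were lower. TspanC8 genes had 0 of 6. The other metalloproteases had ADAM9 higher (0.35) and ADAM19 lower (-0.32, limma adjusted p = 0.0187), and ADAM19 alone with quantile normalization (-0.42). Substrates had 10 higher and 2 lower of 45 (2 and 1 with quantile normalization), led by IL6R (0.59), CD44 (0.40), CHL1 (0.36) and CD99 (0.31), of which IL6R (0.59) and CHL1 (0.39) passed under both scalings, the latter under the array medians in both groups. Growth factor precursors and related shed proteins had ULBP2 (0.38) and LRIG1 (0.26) higher of 13, and 0 with quantile normalization.

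At 24 h in A549 the calls were few, as over all genes (1.32% higher and 0.885% lower as deposited, 1.68% and 1.4% with quantile normalization). IL6R, the interleukin-6 receptor that ADAM17 sheds, rose by 0.46 ± 0.10 (limma adjusted p = 0.00657). CXCL16, a membrane-bound chemokine shed by ADAM10, rose by 0.40. NRG1, an ERBB ligand precursor that stands in both the substrate and the growth factor list, fell by 0.47, and JAG2, a Notch ligand, fell by 0.33. All 4 passed under both scalings. In all, substrates had 3 higher and 2 lower of 45 (4 and 3 with quantile normalization), growth factor precursors 0 and 1 of 13 (1 and 3), the other metalloproteases 0 and 1 of 18 (0 and 1), ADAM19 at -0.36, and accessory factors 0 of 13 (1 and 0). The other 4 lists had none. In H460a the 8 lists held 1 call at 6 h, CDH1 at -0.57 ± 0.09 (limma adjusted p = 0.00192), at the low level of that gene given above, and 0 at 24 h.

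PSENEN and APH1A stood out for their spread within H460a groups. The pooled SD between replicates of PSENEN was 0.53 in H460a, above that of 99.8% of genes and against a median of 0.13, and 0.15 in A549. For APH1A it was 0.25, above 96.9% of genes. NCSTN had 0.045, above 0.769% of genes. In H460a GSI arrays at 24 h PSENEN measured 9.72, 9.73, 8.78 and 8.42, and APH1A measured 11.25, 11.54, 10.67 and 10.77. In vehicle at 24 h PSENEN measured 8.86, 8.87, 9.65 and 8.77, and APH1A measured 10.86, 10.86, 11.3 and 10.89. In both of these groups the high replicates of PSENEN were also the high ones of APH1A. Their correlation over the 16 H460a arrays was 0.77.

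Some pairs of members ran together within lines. ADAM10 and ADAM17 had r = 0.94 over the 16 A549 arrays and 0.75 over the 16 H460a arrays, but 0.22 over all 32. BACE1 and BACE2 had r = 0.94 over all 32 arrays, -0.59 in A549 and 0.43 in H460a. PSEN2 and NCSTN had 0.87 in A549 and -0.80 in H460a. These correlations share line, time and array intensity, and they are given as descriptions with no test.

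The genes most like each member over the 32 arrays, by Pearson correlation, were named by rule. For NCSTN they were TXNIP (0.991), PDK1 (0.988) and HPCAL1 (0.988), and for BACE2 GPX3 (0.996), P3H2 (0.996) and ADGRG2 (0.995). For ADAM17 they were SDCBP (0.970), TMEM131 (0.962) and LRRC40 (0.950); SDCBP was also among the top 3 within A549 (0.981) and within H460a (0.932). ADAM10 was closest to TMEM135 (0.974), PHF3 (0.974) and CUX1 (0.971), and BACE1 to PSMB9 (0.981), NID2 (0.980) and DNER (0.980). PSEN2 was closest to KLHL42 (0.966), APH1A to ASPHD1 (0.924), APH1B to MISP (0.982) and PSENEN to MCRIP1 (0.964). Within H460a alone PSENEN was closest to NRSN2 (0.988) and STT3A (0.986), an oligosaccharyltransferase subunit. Differences between the lines enter the correlations over 32 arrays, and nothing is said here of shared function.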

How the data were processed

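The deposited values are an intensity per probe set on a linear scale. The submitters' processing notes name RMA, which the authors ran before deposit; its version is not given in the sources used here. They were log2-transformed without further scaling. Of 54675 probe sets, 62 controls, 1801 with several symbols and 11721 with none were left out. The probe set with the highest mean stood for each gene. Group means were fitted with limma 3.58.1 (lmFit, eBayes) in R 4.3.3 over all 32 arrays (31.89 degrees of freedom, 7.888 from the prior), with Benjamini-Hochberg adjustment within each contrast. Python 3.11.15 with pandas 2.3.3 and matplotlib 3.10.9 read sequences and drew figures.

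The 9 genes, the 8 lists of partners and substrates, and the marker lists were chosen with earlier results of these data known. From each list up to 4 genes with the largest difference past the threshold were named in the vehicle line and time comparisons and the GSI comparisons, and the 3 genes most correlated with each member were found over all arrays and within each line; for some only the first are printed. The markers and HES1, a Notch target, are checks. COPA and U2AF1L4 follow from their position. Alternatives were other scalings, probe set rules, fits and array subsets. The time and line contrasts in GSI arrays, the difference of time changes between lines, and leaving out 3 arrays (A549 GSI 6 h replicates 3 and 4, H460a vehicle 6 h replicate 3) were added after seeing the data. A description label on embryos matches no other label and was not used. The fit was tested on simulated data: with 50 genes at each fold in the GSI arrays of A549 at 24 h, over 19775 genes, 21 were found at 1.25-fold, 49 at 1.5-fold, 50 at 2-fold and 50 at 4-fold. The simulated noise was drawn independently for each gene and array and held no shift in array intensity. These counts therefore check the fit only and give no rate of detection for the real comparisons.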

Additional observations from a re-analysis of the deposited data

Results flagged for a closer look

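Single arrays stood apart from the other 3 of their group in 5 of 72 groups of 4 tested, where chance gives about 1 in 20. NCSTN measured 10.01 on A549 vehicle 24 h replicate 1, with the others at 10.24 to 10.27, and ADAM17 measured 10.53 on the same array, with the others at 10.61 to 10.63. APH1A measured 11.3 on H460a vehicle 24 h replicate 3, with the others at 10.86 to 10.89, and PSENEN measured 9.65 on that array, with the others at 8.77 to 8.87. BACE1 measured 10.01 on H460a GSI 6 h replicate 2, with the others at 9.86 to 9.88.

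The change from 6 to 24 h in vehicle differed between the lines, H460a minus A549, by -0.52 for PSEN2, 0.37 for NCSTN, -0.39 for ADAM17 and 0.32 for BACE1, each past the limma threshold for the difference itself. Of all genes 35.5% passed in that comparison. With quantile normalization ADAM17 did not pass, and with the mean of probe sets NCSTN, ADAM17 and BACE1 did not.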

How the results depend on the processing

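Counts below are of the 9 genes past the limma threshold. Shares of all genes are given above only for deposited values and for quantile normalization over all arrays. The counts under other settings have no such share beside them, and nothing is read from them about the 9 genes as a set. For GSI in A549 at 6 h (2 as deposited), quantile normalization over all arrays left 1 and within each line 0, and fitting the compared arrays alone, the mean of probe sets, leaving out 3 arrays (A549 GSI 6 h replicates 3 and 4, which hold the highest GSI values of ADAM10 and ADAM17, and H460a vehicle 6 h replicate 3) and that with quantile normalization each left 0; leaving out single arrays gave 0 to 2. GSI in A549 at 24 h gave 1 with array weights (APH1B). The averaged effect gave 1 with trend and robust settings, 2 with array weights and 1 among genes above the median level, and 0 to 1 without single arrays. Time in A549 vehicle gave 3 under each of the 3 quantile settings, and the difference of time changes gave 2 with the mean of probe sets. Among values past the threshold in either of the fits compared, signs turned for ADAM10 with GSI in A549 at 6 h (-0.0104 with quantile normalization and without the 3 arrays), for BACE2 over time in A549 vehicle (-0.00049 over all arrays, with and without the 3 arrays, and -0.000427 within lines), for BACE2 in the difference of time changes (0.26 with quantile normalization and without the 3 arrays, against -0.02) and for the ADAM17 line difference (0.206 in vehicle and 0.211 in GSI with the mean of probe sets). Signs of values past it in neither fit also turned: of 126 values, the sign turned in all for 20 with quantile normalization over all arrays, 24 with the mean of probe sets, 9 with array weights and 4 without the 3 arrays. The causes were not tested. Without single arrays, time gave 5 to 6 in A549 vehicle and 4 to 5 in H460a vehicle. The line counts were 9 under every alternative.

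Same-numbered replicates were not paired by the data: in 0 of 28 pairs of groups did all 4 correlations of deviations exceed 0.1 (range -0.56 to 0.37). A replicate block left every count as it was, 2 for GSI in A549 at 6 h, 5 for time in each line in vehicle and 9 for the lines.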
